A study of Mus musculus with 4 samples.

Results

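Neutrophils of the mouse spleen are described here 4 h after an intravenous injection of TNF, in mice that have or lack the adaptor TRIF. Neutrophils were chosen by their measured transcripts. A barcode was taken as one when it held at least 200 genes, at most 10% mitochondrial UMIs (unique molecular identifiers, each 1 captured RNA molecule), at least 20 UMIs of S100a8 and S100a9 together, no UMI of the monocyte receptors Csf1r and Ccr2, at most 1 UMI of the macrophage genes C1qa, C1qb and C1qc, and no UMI of the B-cell genes Cd79a and Ms4a1 or the T-cell genes Cd3d, Cd3e and Cd3g. This rule gave 378 neutrophils among 20476 barcodes that passed the filters on genes and mitochondrial UMIs, of 24106 barcodes in all.

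Single-cell RNA sequencing of whole spleen suspensions was carried out with 1 droplet library (10x Genomics) for each of 4 groups of mice on the C57BL/6 background, all 10 weeks old. TRIF-KO and wild-type (WT, labelled B6) mice received 100 µl with 9 µg recombinant mouse TNF, and TRIF-KO and WT mice received PBS as the control. The suspensions were freed of red cells by lysis and of dead cells by magnetic beads before capture. The labels neither name the targeted allele of the TRIF-KO mice nor give the number of mice behind a library. With 1 library per group no difference below has a replicate check, and every interval covers counting error only.

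Neutrophils are short-lived phagocytes that leave the bone marrow with granules already filled, and that migrate, engulf microbes and release reactive oxygen and proteases. While maturing they make the granule proteins in waves, the specific-granule proteins such as lactoferrin and cathelicidin before the gelatinase-granule proteins, and they then gain surface receptors such as CXCR2. TNF binds TNFR1 and TNFR2 and activates NF-kB, which induces survival genes, chemokines and its own inhibitors. TRIF is the adaptor through which TLR3 and endosomal TLR4 induce type I interferon and a later wave of NF-kB activation.

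The targeted gene gave no check of the genotype. Ticam1, which encodes TRIF (GRCm38, chr17:56269319-56276786, minus strand), had 8 UMIs in TRIF-KO and 0 in WT neutrophils after TNF, and 0 in TRIF-KO and 2 in WT neutrophils after PBS. A count of 0 allowed up to 13.7 CPM (counts per 1e+06 UMIs, here of the neutrophils of that library) in WT after TNF and 15.3 CPM in TRIF-KO after PBS, so absence was not detectable at this depth, and reads at 1 end of the transcript can lie outside a deleted part.

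Neutrophils numbered 170 of 7061 kept barcodes in TRIF-KO and 40 of 5254 in WT after TNF, and 68 of 5659 in TRIF-KO and 100 of 2502 in WT after PBS. The shares were 2.41% (2.06 to 2.79) in TRIF-KO and 0.761% (0.544 to 1.04) in WT after TNF, against 1.20% (0.934 to 1.52) in TRIF-KO and 4.0% (3.26 to 4.84) in WT after PBS (exact Clopper-Pearson 95% intervals). The share was thus higher after TNF in TRIF-KO spleens, by a ratio of 2.004 (1.504 to 2.70), and lower after TNF in WT spleens, by a ratio of 0.190 (0.129 to 0.277). Between genotypes the ratio of TRIF-KO to WT was 3.16 (2.23 to 4.58) after TNF and 0.301 (0.218 to 0.413) after PBS. Among cells in which the granule genes Camp, Ngp and Ltf took under 1% of UMIs, the ratio of TNF to PBS was 1.17 (0.851 to 1.62) in TRIF-KO, within counting error of no difference, and 0.113 (0.068 to 0.179) in WT. A share depends on how many other cells a suspension held, and the part of cell recovery in these ratios was not tested.

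**Figure D1:**
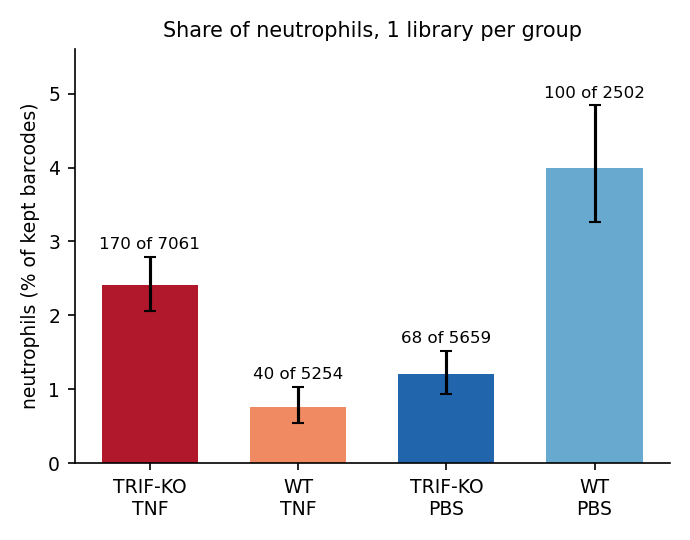
Share of neutrophils among kept barcodes (percent, y axis) in each of the 4 libraries, with exact 95% binomial intervals and the counts above each bar. TRIF-KO with TNF (2.41%) lies above TRIF-KO with PBS (1.20%), and WT with TNF (0.761%) lies below WT with PBS (4.0%).

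The exclusions removed many barcodes that were otherwise rich in S100a8 and S100a9. Of barcodes with at least 20 S100a8 and S100a9 UMIs, 59.6% in TRIF-KO and 57.4% in WT failed an exclusion after TNF, against 35.8% in TRIF-KO and 45.7% in WT after PBS, most often for a Csf1r or Ccr2 UMI. With up to 2 UMIs allowed in each excluded sum and at least 1 UMI of Csf3r, Cxcr2 or Retnlg required, the shares were 4.70% in TRIF-KO and 1.43% in WT after TNF, and 1.80% in TRIF-KO and 6.35% in WT after PBS, in the same order. The threshold itself touched few barcodes: 2 neutrophils of TRIF-KO and 2 of WT after TNF, and 1 of TRIF-KO and 0 of WT after PBS, held 20 to 40 S100a8 and S100a9 UMIs, and 5, 0, 1 and 0 barcodes in the same order of libraries met every other condition with 10 to 19.

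The values that chose the neutrophils are a description. S100a8 and S100a9, the subunits of calprotectin, together took a median of 31.4% of a cell's UMIs in TRIF-KO and 25.6% in WT after TNF, and 13.6% in TRIF-KO and 15% in WT after PBS. Neutrophils held a median of 7995.5 UMIs and 1750.5 genes in TRIF-KO and 4950 UMIs and 1285 genes in WT after TNF. They held 2502.5 UMIs and 1045.5 genes in TRIF-KO and 4363 UMIs and 1392.5 genes in WT after PBS. Summed over cells this made 1566099, 218675, 196604 and 483368 UMIs for TRIF-KO and WT with TNF and TRIF-KO and WT with PBS. Values from WT with TNF (40 cells) and TRIF-KO with PBS are the least precise.

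Of the markers that the rule did not use, Retnlg stood higher in the neutrophils than in the other kept barcodes. Retnlg, a secreted neutrophil protein, had 8545 CPM in TRIF-KO and 7019.5 CPM in WT neutrophils after TNF, against 5946 CPM in TRIF-KO and 10787 CPM in WT neutrophils after PBS. The other kept barcodes of the same libraries, in the same order, had 275, 57.8, 17.5 and 159.8 CPM. At least 1 UMI of Csf3r, Cxcr2 or Retnlg was present in 169 of 170 neutrophils of TRIF-KO and 39 of 40 of WT after TNF, and in all 68 of TRIF-KO and all 100 of WT after PBS. Barcodes that failed an exclusion held such a UMI about as often, in 250 of 251 of TRIF-KO and 52 of 54 of WT after TNF. With PBS all 38 of TRIF-KO and all 84 of WT did, so this check does not set neutrophils apart from excluded barcodes. The primary-granule genes Mpo and Elane, made by early precursors, were at 0 UMIs in all 4 libraries, and so were the markers of basophils and mast cells. The primary-granule genes Prtn3 and Ctsg had UMIs in TRIF-KO with TNF and were at 0 in the other libraries. In TRIF-KO with TNF, Prtn3, Ctsg, Cd34 and Kit together held 27 UMIs.

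Traces of other cells were present and moved with the groups. The 8 monocyte markers summed to 731 CPM in TRIF-KO and 659 CPM in WT after TNF, against 229 CPM in TRIF-KO and 314 CPM in WT after PBS, with the defining genes Fn1 and Cx3cr1 at 0 in every library and most of these UMIs from Ly6c2. The 7 erythroid markers summed to 35928 CPM in TRIF-KO and 2872 CPM in WT after TNF, and 1765 CPM in TRIF-KO and 30004 CPM in WT after PBS. In the neutrophils, 8 cells of TRIF-KO and 1 of WT with TNF, and 0 of TRIF-KO and 3 of WT with PBS, held at least 1% haemoglobin UMIs. The 8 B-cell markers summed to 151 CPM in TRIF-KO and 476 CPM in WT after TNF, and 310.3 CPM in TRIF-KO and 130.3 CPM in WT after PBS. T-cell markers summed to at most 12 UMIs, natural killer cell markers to at most 2 UMIs and eosinophil markers to at most 11 UMIs in a library. The rule itself held Csf1r, Ccr2, Cd79a, Ms4a1, Cd3d, Cd3e and Cd3g at 0. The monocyte, B-cell and T-cell sums therefore come from their other markers only. The 8 dendritic-cell markers summed to 21.1 CPM in TRIF-KO and 252 CPM in WT after TNF, and 25.4 CPM in TRIF-KO and 35.2 CPM in WT after PBS. The 5 platelet markers summed to 19.8 CPM in TRIF-KO and 4.57 CPM in WT after TNF, and 315 CPM in TRIF-KO and 33.1 CPM in WT after PBS. The 5 plasma-cell markers summed to 153 to 379 CPM, and the 6 early-progenitor markers to 5.09 to 49.7 CPM. In TRIF-KO with PBS the plasma-cell sum came from Xbp1 alone, so it does not show plasma cells there. Xbp1 is also in the list of neutrophil transcription factors. The part of these traces in the results below was not tested, beyond leaving out the cells rich in haemoglobin or class II transcripts. Pairs of libraries shared 3 to 15 barcodes, and no 2 neutrophils shared one.

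Many genes of the neutrophils differed between TNF and PBS in both genotypes. Of 2471 measured genes in TRIF-KO neutrophils, 249 (10.1%) were at least 2-fold higher and 631 (25.5%) at least 2-fold lower with TNF than with PBS. Of 2457 in WT neutrophils, 266 (10.8%) were higher and 655 (26.7%) lower. A measured gene held at least 100 UMIs over all neutrophils, reached 50 CPM in a library, and in a compared library had at least 10% of the level of the other barcodes, below which free RNA can give the UMIs. Taken over every measured gene, the median ratio was log2 -0.44 in TRIF-KO and -0.34 in WT. The 10 genes with the most UMIs took 42.6% of UMIs in TRIF-KO and 35.9% in WT after TNF, against 25.6% in TRIF-KO and 26.8% in WT after PBS. With median-of-ratios scaling in place of CPM, 399 genes were higher and 298 lower in TRIF-KO, and 391 higher and 440 lower in WT.

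Many genes of the NF-kB pathway stood higher with TNF in both genotypes. Among NF-kB targets and feedback inhibitors, 10 of 24 measured genes were at least 2-fold higher and 2 at least 2-fold lower (median log2 0.82) in TRIF-KO. In WT 16 of 24 measured genes were at least 2-fold higher and 0 at least 2-fold lower (median log2 1.67). The shares over all measured genes were 10.1% higher and 25.5% lower in TRIF-KO, and 10.8% and 26.7% in WT. Nfkbia, which encodes the inhibitor IkB-alpha, had 1200.4 CPM in TRIF-KO and 2593 CPM in WT neutrophils after TNF, against 412 CPM in TRIF-KO and 426 CPM in WT neutrophils after PBS. With TNF, Nfkbia was 2.91-fold higher (log2 1.54, 1.22 to 1.88) in TRIF-KO and 6.08-fold higher (log2 2.6, 2.37 to 2.84) in WT. Tnfaip3, which encodes the ubiquitin-editing inhibitor A20, had 56.8 CPM in TRIF-KO and 402 CPM in WT neutrophils after TNF, against 20.3 CPM in TRIF-KO and 22.8 CPM in WT neutrophils after PBS. With TNF, Tnfaip3 was 2.79-fold higher (log2 1.48, 0.08 to 3.39) in TRIF-KO and 17.7-fold higher (log2 4.14, 3.24 to 5.2) in WT. For both inhibitors the order of the libraries was WT with TNF, then TRIF-KO with TNF, then both PBS libraries.

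The promoters of these inhibitors, and of the chemokine gene Cxcl2, hold the kB motif GGGNNTTTCC (N is any base) within the 250 bases before the transcription start, searched on both strands. They are shown with the motif in capitals, 5′ to 3′ along the gene (RefSeq, GRCm38.p6).
Tnfaip3, chr10:19015411-19015660, minus strand: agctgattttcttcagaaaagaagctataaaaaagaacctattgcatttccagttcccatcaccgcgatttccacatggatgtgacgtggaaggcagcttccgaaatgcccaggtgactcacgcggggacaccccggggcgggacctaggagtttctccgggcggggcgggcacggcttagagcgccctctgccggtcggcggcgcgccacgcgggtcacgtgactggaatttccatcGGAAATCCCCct
Nfkbia, chr12:55492648-55492897, minus strand: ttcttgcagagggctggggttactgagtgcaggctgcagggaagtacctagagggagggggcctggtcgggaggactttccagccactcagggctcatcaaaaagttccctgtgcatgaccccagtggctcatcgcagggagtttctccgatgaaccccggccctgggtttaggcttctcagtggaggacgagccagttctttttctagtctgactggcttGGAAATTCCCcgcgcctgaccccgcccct
Cxcl2, chr5:90903649-90903898, plus strand: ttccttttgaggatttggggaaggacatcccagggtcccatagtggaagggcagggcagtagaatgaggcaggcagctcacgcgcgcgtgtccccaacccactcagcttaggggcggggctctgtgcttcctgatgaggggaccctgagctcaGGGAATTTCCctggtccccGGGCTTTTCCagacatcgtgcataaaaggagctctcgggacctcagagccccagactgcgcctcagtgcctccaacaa
The motif stood in 464 of 32851 mouse promoters (1.41%), in 6 of 34 promoters (17.6%) of the NF-kB list and in 4 of 10 (40%) of the chemokine list. The chemokine matches were Ccl9, Cxcl1, Cxcl2 and Cxcl3, of which only Cxcl2 was a measured gene in these neutrophils. A match describes these letters and shows neither binding nor a cause.

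Other feedback regulators and subunits also stood higher with TNF. Sod2, the mitochondrial superoxide dismutase, had 943 CPM (TRIF-KO, TNF), 1697 CPM (WT, TNF), 50.9 CPM (TRIF-KO, PBS) and 14.5 CPM (WT, PBS). With TNF, Sod2 was 18.5-fold higher (log2 4.21, 3.33 to 5.28) in TRIF-KO and 117-fold higher (log2 6.87, 5.81 to 8.2) in WT. Traf1, an adaptor of TNF receptors, had 147 CPM (TRIF-KO, TNF), 274 CPM (WT, TNF), 0 CPM (TRIF-KO, PBS) and 0 CPM (WT, PBS). No Traf1 UMI was found with PBS, so that it was at least 9.62-fold higher in TRIF-KO and at least 44.2-fold higher in WT, against a floor of 3 counts per library. Of the NF-kB subunits, Relb was 10.4-fold higher (log2 3.37, 1.5 to 6.43) in TRIF-KO and 9.03-fold higher (log2 3.17, 2.24 to 4.22) in WT, and Nfkb2 was 5.94-fold higher (log2 2.57, 0.99 to 4.87) in TRIF-KO and 8.67-fold higher (log2 3.12, 2.22 to 4.12) in WT. Icam1, the adhesion molecule that binds beta2 integrins, had 69.6 CPM (TRIF-KO, TNF), 338 CPM (WT, TNF), 10.2 CPM (TRIF-KO, PBS) and 0 CPM (WT, PBS). Rela and Rel stayed under 2-fold in both genotypes, and Tnfaip2 was 3.03-fold lower (log2 -1.6, -1.81 to -1.38) with TNF in TRIF-KO while its ratio in WT was log2 -0.14.

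**Figure D2:**
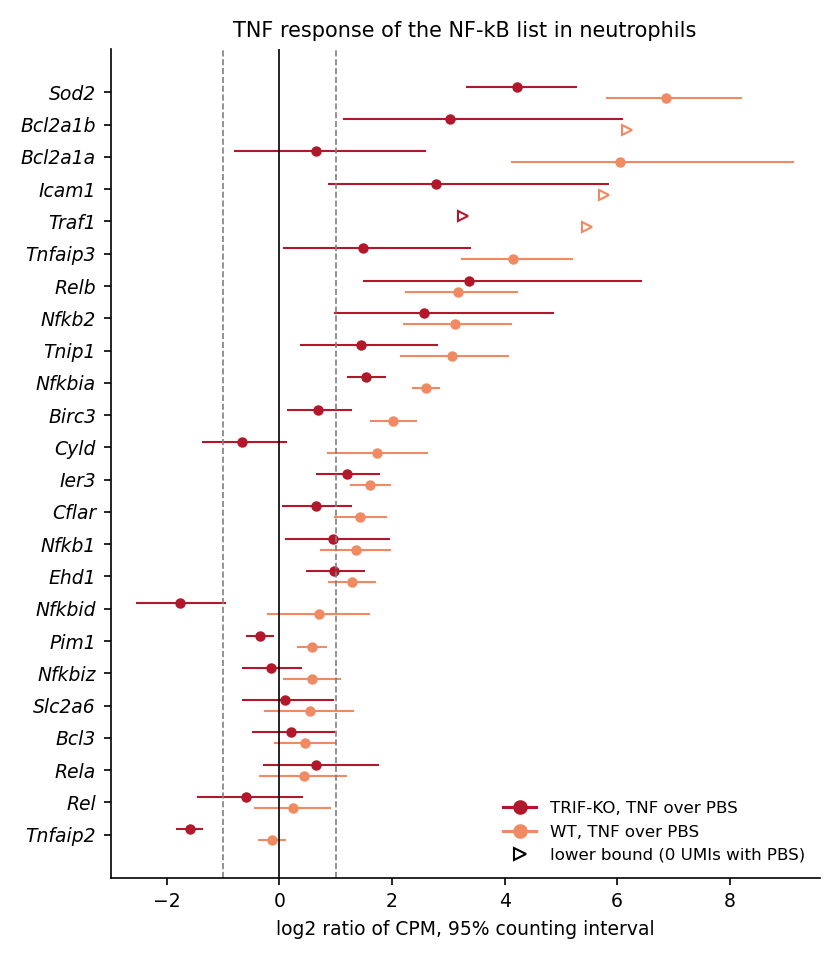
Log2 ratio of CPM with TNF over PBS (x axis) for the 24 measured genes of the NF-kB list (y axis), in TRIF-KO (dark) and WT (light), with 95% counting intervals; open triangles are lower bounds and dashed lines mark 2-fold. In TRIF-KO 10 of 24 genes lie beyond 2-fold on the right, and in WT 16.

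The NF-kB list was also described cell by cell. NF-kB list UMIs took a median of 0.608% of a cell's UMIs in TRIF-KO and 1.29% in WT after TNF, against 0.401% in TRIF-KO and 0.422% in WT after PBS. At least 1% was reached by 44 of 170 cells (25.9%) in TRIF-KO and 26 of 40 (65%) in WT after TNF, and by 4 of 68 (5.88%) in TRIF-KO and 1 of 100 in WT after PBS. With each cell thinned to 1000 UMIs, an Nfkbia UMI was found in 65.9% of TRIF-KO and 84.6% of WT neutrophils after TNF, and 22.1% of TRIF-KO and 33% of WT neutrophils after PBS, with B-cell barcodes at 20.6% to 23.9%. The share of TRIF-KO with PBS thus lay within the range of the B-cell barcodes. The unthinned median depths above differ between the libraries, and B-cell barcodes held medians of 5685.5, 4127, 3863 and 5971 UMIs in the same order of libraries.

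**Figure D3:**
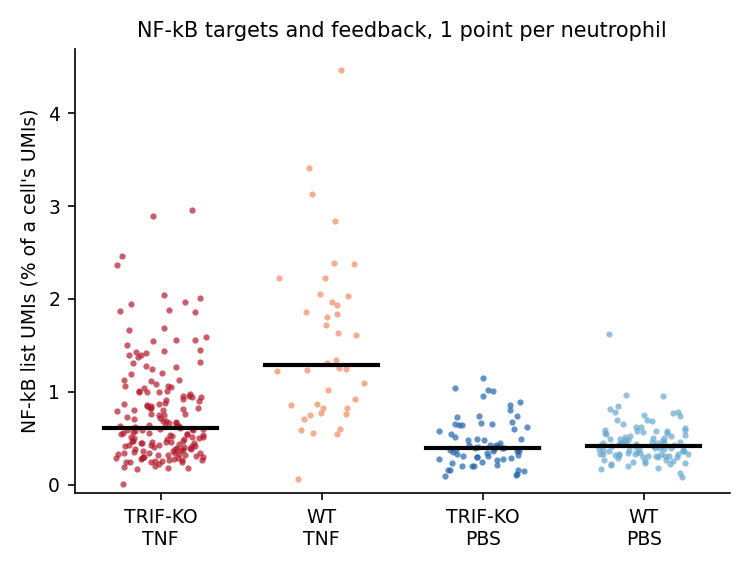
Percent of a cell's UMIs that fall in the NF-kB list (y axis), 1 point per neutrophil, by library, with the median as a bar. Medians are 0.608% (TRIF-KO with TNF), 1.29% (WT with TNF), 0.401% (TRIF-KO with PBS) and 0.422% (WT with PBS).

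Genes of survival and cell death include the BCL-2 and IAP families. In TRIF-KO with TNF, 2 of 13 measured genes were at least 2-fold higher and 2 at least 2-fold lower (median log2 0.64), against 10.1% higher and 25.5% lower among all measured genes, so that the count higher was near that of all genes. In WT 7 of 13 measured genes were at least 2-fold higher and 1 at least 2-fold lower (median log2 1.43), against 10.8% and 26.7%. Of the 7 higher in WT, Cflar, Birc3, Bcl2a1a and Bcl2a1b are also in the NF-kB list and were counted there. With median-of-ratios scaling 7 of 13 were higher and 0 lower in each genotype. Bcl2a1b, a copy of the anti-apoptotic A1 gene, had 83 CPM in TRIF-KO and 448 CPM in WT neutrophils after TNF, against 10.2 CPM in TRIF-KO and 0 CPM in WT neutrophils after PBS. With TNF, Bcl2a1b was 8.16-fold higher (log2 3.03, 1.15 to 6.09) in TRIF-KO and at least 72.2-fold higher in WT, although reads of its near-identical copies cannot be assigned with certainty. Birc3, which encodes the ubiquitin ligase cIAP2, had 246 CPM in TRIF-KO and 723 CPM in WT neutrophils after TNF, against 153 CPM in TRIF-KO and 178 CPM in WT neutrophils after PBS. With TNF, Birc3 was under 2-fold apart in TRIF-KO and 4.06-fold higher (log2 2.02, 1.63 to 2.42) in WT. Bcl2l11, which encodes the pro-apoptotic BIM, lay at log2 -0.19 in TRIF-KO and was 5.02-fold higher (log2 2.33, 1.64 to 3.05) in WT. Fas, the death receptor, had 174 CPM with TNF and 102 CPM with PBS in TRIF-KO, and 352 CPM with TNF and 95.2 CPM with PBS in WT. With TNF, Fas was under 2-fold apart in TRIF-KO and 3.7-fold higher (log2 1.89, 1.34 to 2.45) in WT. Mcl1, the survival factor on which neutrophils depend, had 1097 CPM (TRIF-KO, TNF), 1308 CPM (WT, TNF), 2304 CPM (TRIF-KO, PBS) and 2290.2 CPM (WT, PBS). With TNF, Mcl1 was 2.1-fold lower (log2 -1.07, -1.22 to -0.92) in TRIF-KO, and -0.65 with median-of-ratios scaling.

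Secreted factors stood on both sides. Cxcl2, a ligand of CXCR2 that recruits neutrophils, had 2426 CPM in TRIF-KO and 5021 CPM in WT neutrophils after TNF, against 259 CPM in TRIF-KO and 385 CPM in WT neutrophils after PBS. With TNF, Cxcl2 was 9.35-fold higher (log2 3.23, 2.83 to 3.65) in TRIF-KO and 13-fold higher (log2 3.71, 3.48 to 3.94) in WT. Ccl6, a CC chemokine of mouse myeloid cells, had 75.3 CPM in TRIF-KO and 311 CPM in WT neutrophils after TNF, against 2304 CPM in TRIF-KO and 1849.5 CPM in WT neutrophils after PBS. With TNF, Ccl6 was 30.6-fold lower (log2 -4.93, -5.24 to -4.64) in TRIF-KO and 5.95-fold lower (log2 -2.57, -2.95 to -2.22) in WT. These chemokines stood on opposite sides, and of 16 listed chemokines 3 were measured. Il1b, the precursor of interleukin-1 beta, had 1084 CPM in TRIF-KO and 2492 CPM in WT neutrophils after TNF, against 5178 CPM in TRIF-KO and 3341 CPM in WT neutrophils after PBS. With TNF, Il1b was 4.78-fold lower (log2 -2.26, -2.37 to -2.14) in TRIF-KO and lay at log2 -0.42 in WT. Ccl3, the third measured chemokine, had 78.5 CPM (TRIF-KO, TNF), 146 CPM (WT, TNF), 30.5 CPM (TRIF-KO, PBS) and 8.28 CPM (WT, PBS), and 1 cell held 83.3% of its UMIs in TRIF-KO and 75% in WT with PBS.

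Other effectors stood on both sides in TRIF-KO. Among 16 measured cytokines and effectors 6 were at least 2-fold higher in each genotype, with 5 lower in TRIF-KO and 1 lower in WT. Among all measured genes 10.1% were higher and 25.5% lower in TRIF-KO, and 10.8% higher and 26.7% lower in WT. The count lower in TRIF-KO was thus near that of all genes. Thbs1, which encodes the matrix protein thrombospondin-1, had 863 CPM in TRIF-KO and 4225 CPM in WT neutrophils after TNF, against 96.6 CPM in TRIF-KO and 82.8 CPM in WT neutrophils after PBS. With TNF, Thbs1 was 8.93-fold higher (log2 3.16, 2.51 to 3.89) in TRIF-KO and 51.1-fold higher (log2 5.67, 5.22 to 6.17) in WT. Acod1, the enzyme that makes itaconate, had 279 CPM (TRIF-KO, TNF), 896 CPM (WT, TNF), 45.8 CPM (TRIF-KO, PBS) and 286 CPM (WT, PBS). With TNF, Acod1 was 6.1-fold higher (log2 2.61, 1.67 to 3.75) in TRIF-KO and 3.14-fold higher (log2 1.65, 1.33 to 1.98) in WT. Il1rn, the antagonist of the interleukin-1 receptor, lay at log2 0.93 in TRIF-KO and was 2.51-fold higher (log2 1.33, 1.03 to 1.63) in WT. Saa3, an acute-phase protein, had 476 CPM in TRIF-KO and 498 CPM in WT neutrophils after TNF, against 5.09 CPM in TRIF-KO and 0 CPM in WT neutrophils after PBS, but 1 cell held 29.2% of its UMIs in TRIF-KO and 42.2% in WT after TNF. Tnfsf14, the cytokine LIGHT, was 8.21-fold lower (log2 -3.04, -3.77 to -2.3) with TNF in TRIF-KO and 13.4-fold lower (log2 -3.75, -6.05 to -2.15) in WT.

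Receptors stood on both sides with TNF. Of 15 measured maturation and migration receptors, 4 were at least 2-fold higher and 6 lower in TRIF-KO, and 3 higher and 6 lower in WT. Among all measured genes 10.1% were higher and 25.5% lower in TRIF-KO, and 10.8% higher and 26.7% lower in WT. Csf3r, the receptor of G-CSF, had 643 CPM in TRIF-KO and 631 CPM in WT neutrophils after TNF, against 3240 CPM in TRIF-KO and 2532 CPM in WT neutrophils after PBS. With TNF, Csf3r was 5.04-fold lower (log2 -2.33, -2.48 to -2.19) in TRIF-KO and 4.01-fold lower (log2 -2.0, -2.27 to -1.75) in WT. Cxcr2, the receptor of CXCL2, had 1474 CPM with TNF and 2477 CPM with PBS in TRIF-KO, and 1532 CPM with TNF and 4001 CPM with PBS in WT. With TNF, Cxcr2 lay at log2 -0.75 in TRIF-KO and was 2.61-fold lower (log2 -1.39, -1.56 to -1.22) in WT. Cxcr4, which retains neutrophils in the bone marrow, had 74.1 CPM (TRIF-KO, TNF), 123 CPM (WT, TNF), 554 CPM (TRIF-KO, PBS) and 289.6 CPM (WT, PBS). With TNF, Cxcr4 was 7.49-fold lower (log2 -2.9, -3.29 to -2.51) in TRIF-KO and 2.35-fold lower (log2 -1.23, -1.88 to -0.63) in WT. With median-of-ratios scaling Cxcr4 was under 2-fold in WT, at -0.91. Among cells in which the granule genes Camp, Ngp and Ltf took under 1% of UMIs, Cxcr4 lay at -0.20 in WT.

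On the other side stood decoy and pattern-recognition receptors. Il1r2, a decoy for interleukin-1, had 1142 CPM in TRIF-KO and 1902 CPM in WT neutrophils after TNF, against 219 CPM in TRIF-KO and 736 CPM in WT neutrophils after PBS. With TNF, Il1r2 was 5.22-fold higher (log2 2.38, 1.95 to 2.86) in TRIF-KO and 2.58-fold higher (log2 1.37, 1.16 to 1.58) in WT. The formyl-peptide receptors Fpr1 and Fpr2 were higher in both genotypes. Fpr1 was 2.85-fold higher (log2 1.51, 0.96 to 2.12) in TRIF-KO and 3.28-fold higher (log2 1.71, 1.39 to 2.04) in WT, and Fpr2 3.76-fold higher (log2 1.91, 1.49 to 2.36) in TRIF-KO and 2.68-fold higher (log2 1.42, 1.14 to 1.7) in WT. Cd14, the co-receptor that hands endotoxin to TLR4, was 9.83-fold higher (log2 3.3, 2.75 to 3.9) in TRIF-KO and 13.2-fold higher (log2 3.72, 3.44 to 4.01) in WT. Tlr2, the receptor of bacterial lipoproteins, was 2.44-fold higher (log2 1.29, 0.56 to 2.11) in TRIF-KO and 2.58-fold higher (log2 1.36, 0.96 to 1.77) in WT. Of the receptors of TNF itself, Tnfrsf1a had 167 CPM (TRIF-KO, TNF), 133 CPM (WT, TNF), 239 CPM (TRIF-KO, PBS) and 302 CPM (WT, PBS). Tnfrsf1b had 50.4 CPM (TRIF-KO, TNF), 174 CPM (WT, TNF), 117 CPM (TRIF-KO, PBS) and 89 CPM (WT, PBS), and was lower in TRIF-KO than in WT after TNF, at log2 -1.78. Of 12 measured components of the TNF and TLR4 pathways, 4 were higher and 3 lower in TRIF-KO, and 3 higher and 4 lower in WT. The shares over all measured genes were 10.1% higher and 25.5% lower in TRIF-KO, and 10.8% and 26.7% in WT, so that the counts lower were near them. Irak3, an inhibitor of TLR signalling, was 5.5-fold higher (log2 2.46, 1.52 to 3.6) in TRIF-KO and 14.5-fold higher (log2 3.86, 3.09 to 4.72) in WT.

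**Figure D4:**
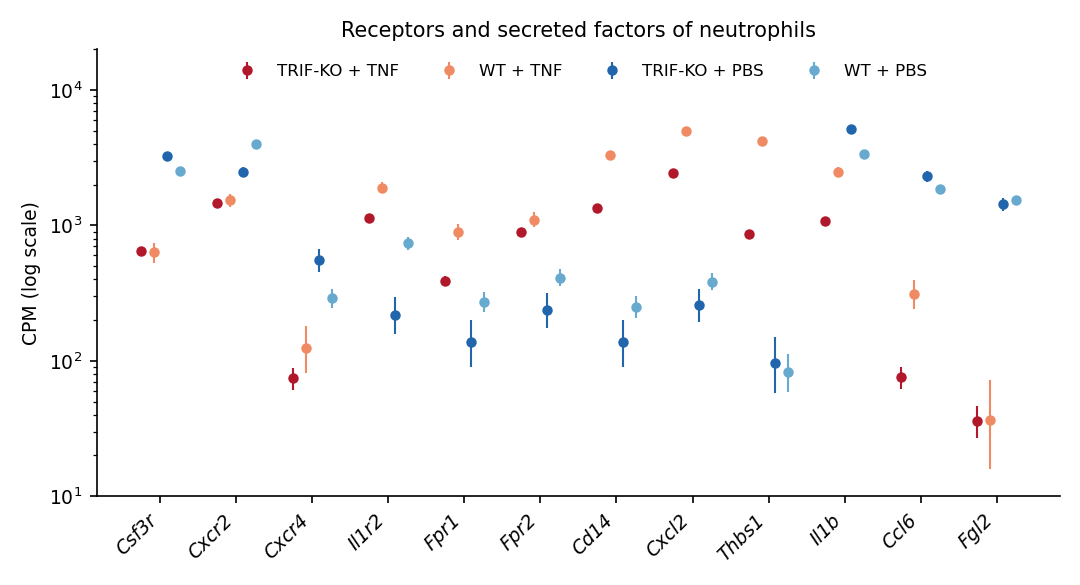
CPM (y axis, log scale) of 12 receptors and secreted factors in the neutrophils of the 4 libraries, with exact Poisson 95% intervals. Csf3r, Cxcr2, Cxcr4, Il1b, Ccl6 and Fgl2 lie lower in both TNF libraries than in both PBS libraries, and Il1r2, Fpr1, Fpr2, Cd14, Cxcl2 and Thbs1 lie higher.

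Among all genes, ranked by the interval bound nearest to no difference, the highest in TRIF-KO with TNF were Lipg, Saa3, Prok2, Sod2, Marcksl1, Traf1, AA467197 and Upp1. In WT they were Saa3, Bcl2a1b, Sod2, Icam1, Ikbke, Thbs1, Traf1 and Ccrl2. Lipg, the endothelial lipase, had 501 CPM in TRIF-KO and 183 CPM in WT neutrophils after TNF, against 5.09 CPM in TRIF-KO and 49.7 CPM in WT neutrophils after PBS. With TNF, Lipg was 98.5-fold higher (log2 6.62, 4.14 to 11.93) in TRIF-KO, where the PBS library held 1 UMI, and 3.68-fold higher (log2 1.88, 1.12 to 2.68) in WT. Marcksl1, an actin-binding protein, had 1882 CPM in TRIF-KO and 2762 CPM in WT neutrophils after TNF, against 132 CPM in TRIF-KO and 86.9 CPM in WT neutrophils after PBS. With TNF, Marcksl1 was 14.2-fold higher (log2 3.83, 3.28 to 4.45) in TRIF-KO and 31.8-fold higher (log2 4.99, 4.54 to 5.48) in WT. Ccrl2, a chemerin-binding receptor, was 2.04-fold higher (log2 1.03, 0.26 to 1.93) in TRIF-KO and 57-fold higher (log2 5.83, 4.57 to 7.48) in WT. Upp1, a uridine phosphorylase, was 14.9-fold higher (log2 3.89, 2.84 to 5.21) in TRIF-KO and 9.16-fold higher (log2 3.19, 2.59 to 3.85) in WT.

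At the other end Fgl2, Tspan13, Cd300ld and Prr5l were among the lowest 8 in both genotypes. Fgl2, a fibrinogen-like protein with prothrombinase activity, had 35.8 CPM in TRIF-KO and 36.6 CPM in WT neutrophils after TNF, against 1429 CPM in TRIF-KO and 1541 CPM in WT neutrophils after PBS. With TNF, Fgl2 was 40-fold lower (log2 -5.32, -5.76 to -4.9) in TRIF-KO and 42.1-fold lower (log2 -5.4, -6.61 to -4.41) in WT. Cd300ld, an activating receptor of the CD300 family, had 43.4 CPM in TRIF-KO and 36.6 CPM in WT neutrophils after TNF, against 788 CPM in TRIF-KO and 561 CPM in WT neutrophils after PBS. With TNF, Cd300ld was 18.2-fold lower (log2 -4.18, -4.62 to -3.76) in TRIF-KO and 15.3-fold lower (log2 -3.94, -5.16 to -2.94) in WT. Jaml, a junctional adhesion molecule of leukocytes, was 12.2-fold lower (log2 -3.61, -4.05 to -3.18) in TRIF-KO and 19.8-fold lower (log2 -4.3, -5.76 to -3.16) in WT. Itga4, the alpha4 integrin, was 35.7-fold lower (log2 -5.16, -5.91 to -4.46) in TRIF-KO. In WT it was 2.1-fold lower (log2 -1.07, -1.85 to -0.36), and 1 cell held 60% of its UMIs after TNF. The difference between these responses was log2 -0.39 without cells rich in haemoglobin or class II transcripts. For Fgl2 and Cd300ld every TNF library lay at least 10-fold below every PBS library.

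Immediate-early genes are switched on within minutes of handling or signals, and their count lower with TNF in WT was at the share of all measured genes. In TRIF-KO 0 of 15 measured genes were at least 2-fold higher and 7 at least 2-fold lower (median log2 -0.88), against 10.1% higher and 25.5% lower among all measured genes. In WT 1 of 15 measured genes were at least 2-fold higher and 4 at least 2-fold lower (median log2 -0.69), against 10.8% and 26.7%. Jund, a subunit of AP-1, had 354 CPM in TRIF-KO and 320.1 CPM in WT neutrophils after TNF, against 1155 CPM in TRIF-KO and 1065 CPM in WT neutrophils after PBS. With TNF, Jund was 3.26-fold lower (log2 -1.7, -1.93 to -1.47) in TRIF-KO and 3.33-fold lower (log2 -1.73, -2.12 to -1.37) in WT. Fos, another subunit, was 2.04-fold lower (log2 -1.03, -1.29 to -0.77) in TRIF-KO and 2.54-fold lower (log2 -1.34, -1.79 to -0.92) in WT, but -0.61 in TRIF-KO with median-of-ratios scaling. Zfp36l2, which promotes decay of AU-rich mRNA, was 3.43-fold lower (log2 -1.78, -2.08 to -1.47) in TRIF-KO and 8.22-fold lower (log2 -3.04, -3.81 to -2.36) in WT. The exception in WT was Nr4a1, a nuclear receptor, 7.26-fold higher (log2 2.86, 1.59 to 4.32), on 23 UMIs with TNF. The medians of the list lay 0.43 in TRIF-KO and 0.35 in WT below those of all measured genes on the log2 scale.

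Genes of the oxidative burst and of iron handling stood on both sides. Cybb, the catalytic subunit of the NADPH oxidase, had 2163 CPM in TRIF-KO and 3078 CPM in WT neutrophils after TNF, against 361 CPM in TRIF-KO and 381 CPM in WT neutrophils after PBS. With TNF, Cybb was 5.99-fold higher (log2 2.58, 2.24 to 2.94) in TRIF-KO and 8.08-fold higher (log2 3.02, 2.78 to 3.26) in WT, although 1 cell held 91.5% of its UMIs in TRIF-KO with PBS. Prdx5, a peroxiredoxin, had 3046 CPM in TRIF-KO and 3142 CPM in WT neutrophils after TNF, against 839 CPM in TRIF-KO and 648 CPM in WT neutrophils after PBS. With TNF, Prdx5 was 3.63-fold higher (log2 1.86, 1.64 to 2.09) in TRIF-KO and 4.85-fold higher (log2 2.28, 2.08 to 2.48) in WT. Of the ferritin subunits, Fth1 was 2.93-fold higher (log2 1.55, 1.46 to 1.65) in TRIF-KO and 3.22-fold higher (log2 1.69, 1.62 to 1.75) in WT, and Ftl1 was 2.66-fold lower (log2 -1.41, -1.52 to -1.3) in TRIF-KO and 2.34-fold lower (log2 -1.23, -1.4 to -1.06) in WT. Slc40a1, the iron exporter ferroportin, had 60 CPM (TRIF-KO, TNF), 41.2 CPM (WT, TNF), 631 CPM (TRIF-KO, PBS) and 465 CPM (WT, PBS). With TNF, Slc40a1 was 10.5-fold lower (log2 -3.39, -3.8 to -3.0) in TRIF-KO and 11.3-fold lower (log2 -3.5, -4.65 to -2.55) in WT. The 8 macrophage markers summed to 253 CPM in TRIF-KO and 151 CPM in WT after TNF, against 676 CPM in TRIF-KO and 565 CPM in WT after PBS. Slc40a1 and Hmox1 made up most of this sum, and C1qa, C1qb, C1qc and Axl were at 0. The rule itself allowed at most 1 UMI of C1qa, C1qb and C1qc in a neutrophil, so their level is no independent check.

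Granule genes varied in a graded way among the cells after TNF, and the 1% line used here is a chosen cut. Camp, which encodes cathelicidin, Ngp and Ltf, which encodes lactoferrin, together took at least 1% of UMIs in 72 of 170 neutrophils (42.4%) of TRIF-KO and 17 of 40 (42.5%) of WT after TNF, against 1 of 68 (1.47%) of TRIF-KO and 3 of 100 (3%) of WT after PBS. With cells thinned to 1000 UMIs, a Camp UMI was found in 50.3% of TRIF-KO and 56.4% of WT neutrophils after TNF, and 2.94% of TRIF-KO and 3.0% of WT neutrophils after PBS, with B-cell barcodes at 0.0344% to 0.453%. Camp had 11159 CPM in TRIF-KO and 12256 CPM in WT neutrophils after TNF, against 5275 CPM in TRIF-KO and 2934 CPM in WT neutrophils after PBS in the summed cells, but 1 cell held 99.8% of the TRIF-KO and 81% of the WT UMIs with PBS. Ngp and Ltf were as uneven with PBS, where 1 cell held 99.5% and 100% of their UMIs in TRIF-KO and 61.2% and 53.5% in WT.

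**Figure D5:**
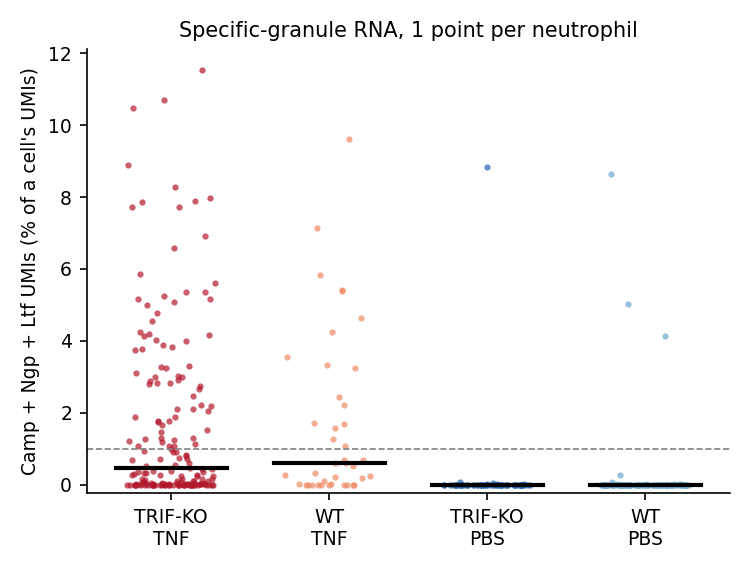
Percent of a cell's UMIs from Camp, Ngp and Ltf together (y axis), 1 point per neutrophil, by library, with the median as a bar and 1% as a dashed line. Above the line lie 72 of 170 cells (TRIF-KO with TNF), 17 of 40 (WT with TNF), 1 of 68 (TRIF-KO with PBS) and 3 of 100 (WT with PBS).

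In the summed cells the genes of specific granules also stood higher with TNF. In TRIF-KO with TNF 8 of 11 measured genes were at least 2-fold higher and 1 at least 2-fold lower (median log2 1.75). In WT 5 of 11 measured genes were at least 2-fold higher and 0 at least 2-fold lower (median log2 0.90). Not every gene of this list encodes a granule protein. In TRIF-KO Ltb4r1, a leukotriene receptor, was among the higher genes, and Cebpe, a transcription factor, was the lower one. The shares over all measured genes were 10.1% higher and 25.5% lower in TRIF-KO, and 10.8% and 26.7% in WT. Without the deepest cell of each library 10 of 11 were higher in TRIF-KO, with a median of 3.51, and with up to 2 UMIs allowed in each excluded sum 2 of 12 were higher and 2 lower, with a median of 0.21. Lcn2, the iron-binding lipocalin, had 14280 CPM in TRIF-KO and 12137 CPM in WT neutrophils after TNF, against 2131 CPM in TRIF-KO and 3728 CPM in WT neutrophils after PBS. With TNF, Lcn2 was 6.7-fold higher (log2 2.74, 2.6 to 2.89) in TRIF-KO and 3.26-fold higher (log2 1.7, 1.62 to 1.79) in WT, although 1 cell held 54.4% of its UMIs in TRIF-KO and 37.6% in WT with PBS. Cd177, a surface glycoprotein stored in these granules, was 3.37-fold higher (log2 1.75, 1.32 to 2.21) in TRIF-KO and 2.93-fold higher (log2 1.55, 1.18 to 1.92) in WT. Among gelatinase-granule genes Mmp8, the neutrophil collagenase, had 3797 CPM in TRIF-KO and 3997 CPM in WT neutrophils after TNF, against 661 CPM in TRIF-KO and 3163 CPM in WT neutrophils after PBS. With TNF, Mmp8 was 5.74-fold higher (log2 2.52, 2.27 to 2.78) in TRIF-KO and lay at log2 0.34 in WT.

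Cells with little Camp, Ngp and Ltf still differed with TNF. Among the 98 cells of TRIF-KO and 23 of WT with TNF, and 67 of TRIF-KO and 97 of WT with PBS, in which these genes took under 1%, 14 of 23 measured NF-kB list genes were at least 2-fold higher in TRIF-KO and 17 of 23 in WT, and 0 were lower in either. Among all genes measured in these cells 186 of 1666 were higher in TRIF-KO and 207 of 1658 in WT. The medians were 1.64 in TRIF-KO and 1.93 in WT. Of the immediate-early genes 3 of 15 were at least 2-fold lower in TRIF-KO and 5 of 15 in WT, against 433 of 1666 and 524 of 1658 among all genes.

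Genes induced by type I interferon had a median below that of all measured genes with TNF in WT. Of the interferon-stimulated genes, 5 of 30 measured genes were at least 2-fold higher and 7 at least 2-fold lower (median log2 -0.29) in TRIF-KO, against 10.1% higher and 25.5% lower among all measured genes. In WT 0 of 30 measured genes were at least 2-fold higher and 17 at least 2-fold lower (median log2 -1.06), against 10.8% and 26.7%. The median in TRIF-KO was 0.13 with median-of-ratios scaling. In WT 2 were higher and 11 lower with median-of-ratios scaling, against 391 and 440 of 2457 among all genes. Among cells with little Camp, Ngp and Ltf 9 of 25 were lower in WT. That count was near the share of all genes in those cells, 524 of 1658. Rsad2, which encodes the antiviral enzyme viperin, had 134 CPM in TRIF-KO and 27.4 CPM in WT neutrophils after TNF, against 96.6 CPM in TRIF-KO and 213 CPM in WT neutrophils after PBS. With TNF, Rsad2 lay at log2 0.47 in TRIF-KO and was 7.77-fold lower (log2 -2.96, -4.44 to -1.79) in WT. Oasl2, a 2′-5′-oligoadenylate synthetase-like protein, was 4.17-fold lower (log2 -2.06, -2.47 to -1.64) in TRIF-KO and 3.18-fold lower (log2 -1.67, -2.22 to -1.15) in WT. Slfn4, a Schlafen protein of myeloid cells, had 569 CPM in TRIF-KO and 284 CPM in WT neutrophils after TNF, against 259 CPM in TRIF-KO and 652 CPM in WT neutrophils after PBS. With TNF, Slfn4 was 2.19-fold higher (log2 1.13, 0.73 to 1.57) in TRIF-KO and 2.3-fold lower (log2 -1.2, -1.62 to -0.80) in WT. Ifitm6, a membrane protein of the same family as the antiviral IFITM proteins, was 8.39-fold higher (log2 3.07, 2.73 to 3.43) in TRIF-KO and lay at log2 0.70 in WT.

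Of the promoters of this list, 18 of 42 (42.9%) held GAAANNGAAA, the core of the interferon response element, against 978 of 32851 (2.98%) of all promoters, while none of the 34 of the NF-kB list did. That of Rsad2 is shown with the match, read on the other strand, in capitals.
Rsad2, chr12:26456453-26456702, minus strand: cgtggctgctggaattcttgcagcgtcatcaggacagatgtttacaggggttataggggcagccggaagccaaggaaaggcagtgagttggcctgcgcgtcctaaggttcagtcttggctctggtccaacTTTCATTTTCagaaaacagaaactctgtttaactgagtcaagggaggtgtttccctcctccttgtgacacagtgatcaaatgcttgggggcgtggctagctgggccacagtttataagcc

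Between genotypes after TNF, most measured genes of the NF-kB list stood lower in TRIF-KO. Of 2452 measured genes 195 (7.95%) were at least 2-fold higher and 138 (5.63%) at least 2-fold lower in TRIF-KO than in WT. In the NF-kB list 0 of 24 measured genes were at least 2-fold higher and 16 at least 2-fold lower (median log2 -1.09), against a median of -0.06 for all measured genes. Nfkbia was 2.16-fold lower (log2 -1.11, -1.25 to -0.97) and Tnfaip3 7.08-fold lower (log2 -2.82, -3.27 to -2.38). Birc3 was 2.94-fold lower (log2 -1.56, -1.83 to -1.28), Icam1 4.86-fold lower (log2 -2.28, -2.72 to -1.84) and Tnip1, a partner of A20, 2.29-fold lower (log2 -1.2, -1.67 to -0.70). Traf1 and Sod2, which were far above PBS in both genotypes, were under 2-fold apart, Traf1 at log2 -0.90 and Sod2 at log2 -0.85. In the alternatives tried 10 to 20 genes of the list were lower, or 2 of 7 with cells thinned, and none was higher. Nfkbia was under 2-fold in 5 of 14 alternatives, at -0.58 to -0.95, and Tnip1 in 4, at -0.41 to -0.98.

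Some genes of survival, effectors and chemokines were also lower in TRIF-KO. In the survival list 0 of 13 measured genes were at least 2-fold higher and 7 at least 2-fold lower (median log2 -1.01), against 5.63% lower among all measured genes. Of these 7, Cflar, Birc3, Bcl2a1a and Bcl2a1b are also in the NF-kB list and were counted there. The lower ones included Bcl2a1a, 8.59-fold lower (log2 -3.1, -3.67 to -2.54), Bcl2a1b, 5.4-fold lower (log2 -2.43, -2.82 to -2.04), and Bcl2l11, 5.49-fold lower (log2 -2.46, -2.96 to -1.94). Thbs1 was 4.9-fold lower (log2 -2.29, -2.41 to -2.17) in TRIF-KO, and the effector list had 4 of 16 lower and none higher. Acod1 was 3.21-fold lower (log2 -1.68, -1.93 to -1.43) and Il1rn 2.84-fold lower (log2 -1.51, -1.75 to -1.26). Of the chemokines, Cxcl2 was 2.07-fold lower (log2 -1.05, -1.15 to -0.95) and Ccl6 4.13-fold lower (log2 -2.05, -2.49 to -1.59), but Cxcl2 was under 2-fold in 8 of 14 alternatives and Il1b, given next, in 3, at -0.60 and -0.92 among cells with little Camp, Ngp and Ltf. Il1b was 2.3-fold lower (log2 -1.2, -1.34 to -1.06), Ptafr, the receptor of platelet-activating factor, 2.69-fold lower (log2 -1.43, -1.77 to -1.08), and Nlrp3, the inflammasome sensor, 2.41-fold lower (log2 -1.27, -1.86 to -0.64). Many of these differences rest on the 40 cells of WT with TNF, in which class II transcripts of other cells were also present: 10 of 170 TRIF-KO and 7 of 40 WT cells held at least 5 UMIs of class II genes and Cd74, and 1 WT cell held 50% of H2-Aa UMIs.

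The interferon list held few genes past 2-fold between genotypes after TNF. In it 4 of 30 measured genes were at least 2-fold higher in TRIF-KO and 1 at least 2-fold lower (median log2 0.25). Among all measured genes 7.95% were higher and 5.63% lower (median log2 -0.06), so that both counts were near those shares. Rsad2 was 4.89-fold higher (log2 2.29, 1.14 to 3.75), on 6 UMIs in WT, and Slfn4 2.01-fold higher (log2 1.0, 0.63 to 1.4), but under 2-fold in 5 of 14 alternatives, at 0.84 to 0.97. Cmpk2, a mitochondrial nucleotide kinase, was 9.36-fold higher (log2 3.23, 0.70 to 8.55), on 1 UMI in WT. Among the receptors TRIF-KO over WT was log2 0.03 for Csf3r and log2 -0.06 for Cxcr2. Among all genes the highest 8 included Hemgn, Car2, Steap4, Gclm and Slc4a1, of which Hemgn, Car2 and Slc4a1 are genes of red-cell precursors. Without cells rich in haemoglobin or class II transcripts Slc4a1 lay at -0.91 and Car2 at 0.09, and Slc4a1 lay at 0.91 with doublets removed. In TRIF-KO after TNF 1 cell held 52.9% of the Hemgn UMIs, and 8 cells of that library held at least 1% haemoglobin UMIs.

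With PBS the NF-kB genes past 2-fold between genotypes stood on both sides, and the interferon genes past 2-fold were lower in TRIF-KO. Of 2450 measured genes 166 (6.78%) were at least 2-fold higher and 197 (8.04%) at least 2-fold lower in TRIF-KO than in WT. In the NF-kB list 3 of 21 measured genes were at least 2-fold higher and 1 at least 2-fold lower (median log2 -0.13). The higher ones were Cyld, Bcl2a1a and Sod2, and the lower one was Relb. In the interferon list 0 of 30 measured genes were at least 2-fold higher and 6 at least 2-fold lower (median log2 -0.49). Mmp8 was 4.78-fold lower (log2 -2.26, -2.53 to -2.0), Acod1 6.24-fold lower (log2 -2.64, -3.8 to -1.67) and Il1r2 3.37-fold lower (log2 -1.75, -2.24 to -1.29). Slfn4 was 2.51-fold lower (log2 -1.33, -1.79 to -0.90). Ninj1, which mediates membrane rupture in dying cells, was 5.74-fold higher (log2 2.52, 1.5 to 3.63) in TRIF-KO, and Ccrl2 6.88-fold higher (log2 2.78, 1.23 to 4.61), on 5 UMIs in WT. Some ratios came from 1 cell, such as that of the histone gene Hist1h2ae, of whose UMIs 1 WT cell held 93.3% and whose ratio was log2 -0.12 without the cell holding most of them.

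The response to TNF was then set against itself between genotypes, as the log2 ratio in TRIF-KO minus that in WT. Of 2453 measured genes this difference was at least 1 (2-fold) higher in 269 (11%) and lower in 374 (15.2%), with a median of -0.09. In the NF-kB list 9 of 21 measured genes had a lower response in TRIF-KO and none a higher one, with a median of -0.88. Cyld, Bcl2a1a and Sod2 were among these 9, and their higher levels in TRIF-KO with PBS enter that difference. Nfkbia had a difference of log2 -1.07 (-1.46 to -0.67), which was under 2-fold in 7 of 14 alternatives, at -0.33 to -0.97. Tnfaip3 had one of log2 -2.77 (-4.4 to -1.14). The lowest 5 of all genes were Ccrl2 at log2 -4.72 (-6.17 to -3.27), Itga4 at log2 -4.08 (-5.05 to -3.12), Bcl2a1a at log2 -5.25 (-7.54 to -2.95), Ninj1 at log2 -3.47 (-4.52 to -2.42) and Ccl6 at log2 -2.37 (-2.83 to -1.91). Without cells rich in haemoglobin or class II transcripts Itga4 lay at -0.39. In the interferon list 8 of 30 had a higher response in TRIF-KO and none a lower one, with a median of 0.56. Rsad2 had a difference of log2 3.29 (1.96 to 4.61) and Slfn4 of log2 2.31 (1.75 to 2.87). All 4 libraries enter each of these values, which are not independent of the comparisons above.

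The spread between cells of a library was described by the ratio of variance to mean over cells thinned to 1000 UMIs, for genes with a mean of at least 0.5 UMIs, so that genes under that mean are not ranked. S100a8 and S100a9 chose the cells and are left aside. Camp was among the first 2 genes in all 4 libraries, with ratios of 20.8 in TRIF-KO and 21.2 in WT after TNF, and 59 in TRIF-KO and 21.9 in WT after PBS. The PBS values for Camp come from cells of which 2.94% in TRIF-KO and 3% in WT held a Camp UMI. Ifi27l2a, an interferon-induced mitochondrial protein, was among the first 8 in both PBS libraries, at 5.95 in TRIF-KO and 6.45 in WT. Saa3 was among the first 8 in TRIF-KO with TNF, where 9.58% of the thinned cells held a Saa3 UMI, and a cell at 0 after thinning may still hold the transcript.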

How the data were processed

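Whole-spleen suspensions of 4 groups were captured with 10x Genomics droplets and sequenced on a NextSeq 550, per the labels. The authors deposited filtered matrices of raw UMI counts for 32285 features. They were made with Cell Ranger 6.0.1 per the file headers, while the submitters' processing notes name Cell Ranger 3.0, Seurat 4.1.1 and the build mm10. Neither the strand nor the annotation of the counting is given in the sources used here.

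From these counts, low-quality barcodes (under 200 genes, or over 10% mitochondrial UMIs) were left out, and neutrophils were chosen by the rule given above. Doublets were not removed; their removal with Scrublet in Scanpy 1.11.5 was an alternative. UMIs were summed over the neutrophils of each library and given as CPM with exact Poisson 95% intervals. Ratios have exact conditional 95% intervals, and the difference between responses has 0.5 added to each count and an interval for counting error. With 1 library per group no test across samples exists and no p-value is given. A count of 0 allows 3 counts. Total UMIs of the neutrophils ranged 196604 to 1566099, which sets the precision. UMIs are counted once per molecule, but all intervals and limits cover counting error only. The step was tested on simulated data.

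Named genes were the 8 highest and 8 lowest of each comparison, ranked by the interval bound nearest to no difference among measured genes at least 2-fold apart, and 5 each for the difference between responses, leaving out predicted and sex-linked genes and those of mitochondria, ribosomes, haemoglobin, immunoglobulins and T-cell receptors, plus members of 25 gene lists (474 genes) and 13 cell-type marker lists. Some genes that this rule names are not reported here. The members of the neutrophil class and the lists were chosen with earlier results of these data known. Coordinates of Ticam1 are from GENCODE M21 (GRCm38), and promoters from RefSeq (GRCm38.p6), where 27 of 32 NF-kB, 10 of 16 chemokine and 35 of 49 interferon list genes matched. Near-identical copies such as Bcl2a1a and Bcl2a1b, or the Sirpb1, Ifitm and Stfa genes, may share reads. Alternatives varied the thresholds of the rule, doublets, scaling, the filter on UMIs, cell weights, thinning, and cells rich in other cells' RNA. Python 3.11.15, NumPy 2.4.6, pandas 2.3.3, SciPy 1.17.1 and Matplotlib 3.10.9 were used.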

Additional observations from a re-analysis of the deposited data

Results flagged for a closer look

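The share of neutrophils lay on opposite sides with TNF in the genotypes, with a ratio of 2.004 in TRIF-KO and 0.190 in WT. Among cells in which Camp, Ngp and Ltf took under 1% of UMIs, it was 1.17 (0.851 to 1.62) in TRIF-KO, so that no higher share was detectable there. With 1 library per group this difference was not tested.

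Slfn4 also lay on opposite sides with TNF, at log2 1.13 in TRIF-KO and -1.20 in WT, with 569 CPM in TRIF-KO and 284 CPM in WT neutrophils after TNF, against 259 CPM in TRIF-KO and 652 CPM in WT neutrophils after PBS, and this difference was not tested.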

How the results depend on the processing

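Values are log2 ratios of CPM or counts of genes at least 2-fold higher or lower. Among cells with under 1% Camp, Ngp and Ltf, an alternative chosen after seeing the data, the share ratio of TNF over PBS was 1.17 (0.851 to 1.62) in TRIF-KO and 0.113 (0.068 to 0.179) in WT, so the higher share in TRIF-KO was within counting error there. In those cells 74 of 1644 measured genes were higher and 127 lower in TRIF-KO than in WT with PBS. A lower response in TRIF-KO was found for 238 of 1642. Median-of-ratios scaling gave 399 higher and 298 lower with TNF in TRIF-KO. CPM without the 10 genes with most UMIs gave 385 higher and 325 lower with TNF in TRIF-KO, and 91 lower in TRIF-KO than in WT after TNF. Cells weighted equally gave 430 genes with a higher response in TRIF-KO. Without a filter on UMIs the counts were 603 higher and 2165 lower (TNF, TRIF-KO), 939 and 1564 (TNF, WT), 664 and 1049 (TRIF-KO over WT, TNF), 944 and 677 (TRIF-KO over WT, PBS) and 557 and 2029 (difference between responses). With cells thinned to 1000 UMIs they were, in the same order, 59 and 129, 65 and 117, 31 and 26, 12 and 31, and 52 and 65. The genes measured also changed, so these counts cannot be set directly against those of the main settings. They numbered 6909, 5993, 6729, 5977 and 6046 without the filter, and 480, 474, 470, 476 and 479 with thinned cells.

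Without cells rich in haemoglobin or class II transcripts, another alternative chosen after seeing the data, Slc4a1 lay at -0.91 for TRIF-KO over WT after TNF, opposite to its value with all cells. With thinned cells Fkbp5 lay at -0.64 for TNF over PBS in WT. The causes of these shifts were not tested. Of 169 values of named genes, 155 were at least 2-fold. Over the 14 alternatives 138 to 155 values were at least 2-fold, leaving out calls that changed side. These counts can include values that were under 2-fold with the main settings, so they are not the number of calls kept. Calls of 2-fold with TNF that ended were, with median-of-ratios scaling, those of Fos (-0.61), Mcl1 (-0.65), Tsc22d3 (-0.86) and Ftl1 (-0.99) in TRIF-KO, and of Cxcr4 (-0.91), Ftl1 (-0.91), Itga4 (-0.75) and Slfn4 (-0.88) in WT. Among cells with little Camp, Ngp and Ltf they were those of Fos (-0.69), Ftl1 (-0.95), Mcl1 (-0.68), Tnfaip2 (-0.98) and Tsc22d3 (-0.82) in TRIF-KO, and of Cd177 (0.84), Cxcr4 (-0.20), Fkbp5 (0.43), Ftl1 (-0.87), Itga4 (-0.05), Oasl2 (-0.77) and Slfn4 (-0.92) in WT. With up to 2 UMIs in each excluded sum Slfn4 lay at 0.84 in TRIF-KO and Fos at -0.92 in WT, and without the deepest cell Ccrl2 lay at 0.88 in TRIF-KO. For TRIF-KO over WT after TNF, thinned cells gave values under 2-fold that include Il1b -0.87, Ptafr -0.69 and Steap4 0.12.

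Leaving out a replicate was not possible with 1 library per group. No paired analysis was possible because each group had 1 library and the labels give no replicate numbers. The 40 neutrophils of WT with TNF and the 196604 UMIs of TRIF-KO with PBS limit the precision, and a gene at 0 UMIs there can still be present at up to 13.7 CPM in WT with TNF or 15.3 CPM in TRIF-KO with PBS.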

Other observations

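The glucocorticoid and cytoskeletal lists, whose counts are not given above, held genes on both sides of 2-fold. Among all measured genes 10.1% were at least 2-fold higher and 25.5% lower with TNF in TRIF-KO, and 10.8% higher and 26.7% lower in WT, and several counts of the lists below lie at or under these shares. Of 9 measured glucocorticoid-responsive genes, 3 were at least 2-fold higher and 4 lower with TNF in TRIF-KO, and 3 higher and 3 lower in WT. Il1r2, given above among the receptors, was 1 of the 3 higher in each genotype. Fkbp5, a co-chaperone of the glucocorticoid receptor, had 138 CPM in TRIF-KO and 119 CPM in WT neutrophils after TNF, against 30.5 CPM in TRIF-KO and 49.7 CPM in WT neutrophils after PBS. With TNF, Fkbp5 was 4.52-fold higher (log2 2.18, 1.03 to 3.64) in TRIF-KO and 2.39-fold higher (log2 1.26, 0.40 to 2.12) in WT. Tsc22d3, which encodes the leucine zipper protein GILZ, was 2.44-fold lower (log2 -1.29, -1.58 to -0.98) in TRIF-KO and 2.74-fold lower (log2 -1.45, -1.95 to -0.98) in WT. Of 21 measured cytoskeletal and motility genes 1 was higher and 1 lower in TRIF-KO, and 2 higher and 2 lower in WT.

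Of 15 glycolysis genes 1 was higher and 2 lower with TNF in TRIF-KO, and 1 higher and 3 lower in WT. Hif1a, the oxygen-sensitive transcription factor, had 160.3 CPM in TRIF-KO and 334 CPM in WT neutrophils after TNF, against 66.1 CPM in TRIF-KO and 236 CPM in WT neutrophils after PBS. With TNF, Hif1a was 2.42-fold higher (log2 1.28, 0.48 to 2.21) in TRIF-KO and lay at log2 0.50 in WT. Cebpb, a transcription factor of emergency granulopoiesis, lay at log2 0.88 in TRIF-KO and was 2.47-fold higher (log2 1.31, 1.13 to 1.49) in WT. Cebpd, its relative, was 2.83-fold lower (log2 -1.5, -1.76 to -1.24) in TRIF-KO and 4.23-fold lower (log2 -2.08, -2.64 to -1.57) in WT.

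The remaining lists are given by their counts with TNF over PBS. Of 21 measured phagocytic and pattern-recognition receptors 5 were at least 2-fold higher and 4 lower in TRIF-KO, and 4 higher and 4 lower in WT. Of 13 adhesion genes 2 were higher and 5 lower in TRIF-KO, and 2 higher and 4 lower in WT. Of 10 gelatinase-granule genes 2 were higher and 1 lower in TRIF-KO, and 1 higher and 2 lower in WT. Of 10 genes of the calprotectin and stefin list 1 was higher and 2 lower in TRIF-KO, and 2 higher and 2 lower in WT. That list also holds Retnlg, Lrg1, Wfdc17 and Wfdc21, and S100a8 and S100a9, which chose the cells. The higher gene in TRIF-KO was Wfdc21. Of 15 transcription factors of neutrophils 1 was higher and 3 lower in TRIF-KO, and 2 higher and 7 lower in WT. Of 14 antioxidant and iron genes 5 were higher and 3 lower in TRIF-KO, and 6 higher and 3 lower in WT, and of 7 NADPH oxidase genes 1 was higher and 2 lower in TRIF-KO, and 3 higher and 2 lower in WT. Of 8 inflammasome genes 1 was higher and 4 lower in TRIF-KO, and 1 higher and 2 lower in WT. Of 11 genes induced by interferon gamma 1 was higher and 4 lower in TRIF-KO, and 0 higher and 1 lower in WT. Of 5 genes of the chemokine-receptor list 1 was higher and 1 lower in TRIF-KO, and 1 higher and 2 lower in WT. That list also holds Cmtm6, which is not a chemokine receptor and stayed under 2-fold in both. Of 7 cell-cycle genes 0 passed 2-fold in TRIF-KO and 1 was higher in WT, and of 5 heat-shock genes 1 was lower in each genotype. Srgn, which encodes the granule proteoglycan serglycin, was the 1 measured gene of the azurophil list and stayed under 2-fold in both.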
